A study of Mus musculus with 8 samples.

Results

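The Zfp genes are mouse genes named for the zinc finger, a small fold in which a zinc ion holds a loop of protein that can grip DNA or RNA. The members here were every gene with a symbol of the form Zfp followed by a number in the probe annotation, other than Zfp36, with the brightest probe taken for each gene. This rule used names alone and gave 57 genes, each with 1 probe, among 6370 gene symbols and 10500 probes on the array. All 57 symbols were unchanged in the RefSeq gene table of mouse assembly GRCm38.p6. A change could be fitted for 56 of them.

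Expression was measured on 1-colour CodeLink arrays in the extensor digitorum longus (EDL), a fast muscle of the lower hindlimb, of 4 male Swiss Webster mice numbered 183, 197, 438 and 440. In each mouse the EDL of 1 leg was driven to contract for 4 h by electrical stimulation of the sciatic nerve, and the resting EDL of the opposite leg of the same animal was the control. The study set out to follow gene activation at the onset of a change of muscle phenotype, and the control muscle therefore belonged to an animal that was itself undergoing the procedure. The median intensity per array ran from 0.900 to 0.939, and 10367 to 10474 probes had a value on each array. Of the fibre markers, 10 fast and 5 slow genes were tested, and 0 of either list were at the intensity floor on every array. Levels of different probes cannot be compared, so the arrays show that markers of both fibre types were measured and not which type prevailed. In stimulated muscle 10 of 10 fast genes had a negative change (median -0.47) and 4 of 5 slow genes a positive one (median 0.67), and 0 of them passed the test. The summed intensity of the fast list was 8257 to 16574 in contralateral and 5671 to 10332 in stimulated muscles, and that of the slow list 28.6 to 76.4 and 43 to 145.

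Most genes of this name encode proteins with several C2H2 fingers in a row, which bind DNA. Many of them, called KRAB zinc finger proteins, carry a second domain that recruits the corepressor Trim28 and with it enzymes that lay down silent chromatin, and they are known for silencing transposable elements and some genes. They are often found side by side in the genome, as copies of one another. A smaller number do other work: Zfp36l1 binds AU-rich elements in messenger RNA and speeds its decay, and others bind double-stranded RNA or act at the mitotic spindle. For most of the single KRAB genes no role in muscle is known with certainty, and for such genes no role is given here.

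In stimulated muscle 1 of the 56 Zfp genes, Zfp112, was lower and 0 were higher at adjusted p 0.05 (limma with mouse as a block, Benjamini-Hochberg over all 10406 tested probes). Over all tested probes 1.34% were called, 1.11% higher and 0.231% lower, so the share of members called, 1.79%, was near that of the array. At an unadjusted p of 0.05, 9 members were lower and 3 higher, or 16.1% and 5.36% of the 56, where 8.49% and 6.74% of all probes were. Changes are stimulated minus contralateral on the log2 intensity scale, and ± gives limma's moderated standard error (SE) over n = 4 mice, unless fewer are named.

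**Figure D1:**
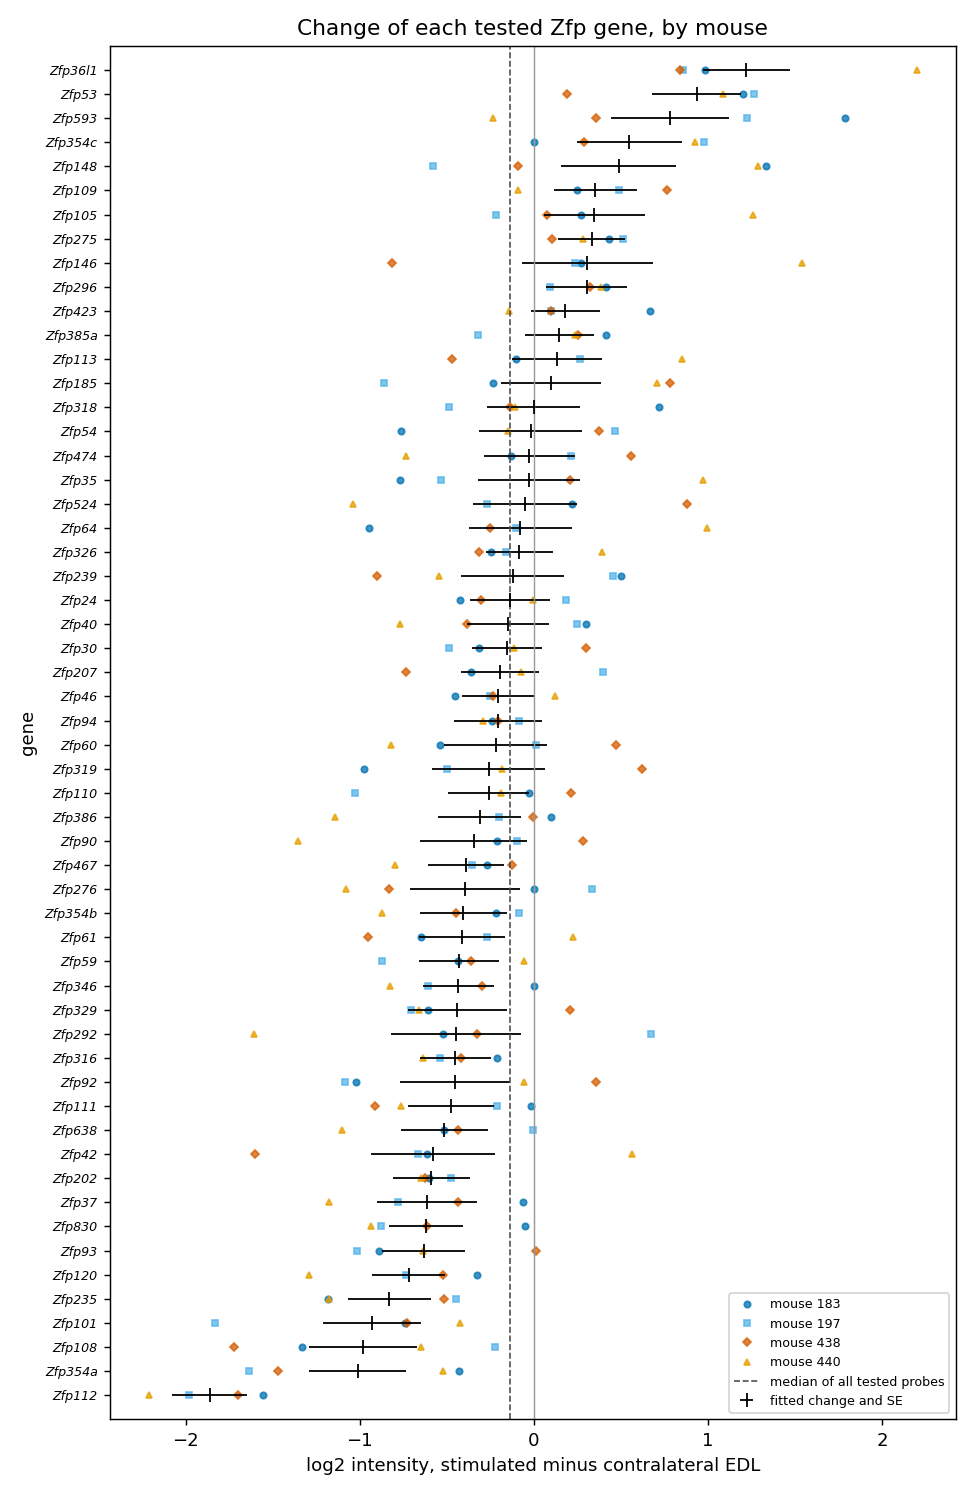
Log2 change of each of the 56 tested Zfp genes (horizontal axis, stimulated minus contralateral), 1 symbol per mouse, with the fitted change and its SE in black; the dashed line is the median of all tested probes, -0.14. Zfp112 lies lowest at -1.86 and Zfp36l1 highest at 1.22, and 42 of the 56 fitted changes are below 0.

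Zfp112 was the member with the largest fall. Its log2 intensity in contralateral muscle was 1.20, 0.48, 2.16 and 1.38 in mice 183, 197, 438 and 440. In the stimulated muscle of the same mice it was -0.36, -1.50, 0.46 and -0.83. Every stimulated muscle was below every contralateral one, although the highest stimulated value, in mouse 438, lay just under the lowest contralateral value, in mouse 197. The differences within mice were -1.56, -1.98, -1.70 and -2.21, so the 4 animals started from different levels and dropped by similar amounts. The fitted change was -1.86 ± 0.22, a 3.64-fold lower intensity, with adjusted p 0.0057 in limma. Relative to the median of all probes it was -1.72. The call ended without mouse 183 (adjusted p 0.0559), without mouse as a block (0.387), when the floor was raised to the 20th percentile (0.136), without moderation of the variance (0.338) and in mice 183 and 197 alone (0.361), while the change itself stayed between -1.96 and -1.71 over 15 alternative settings.

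**Figure D2:**
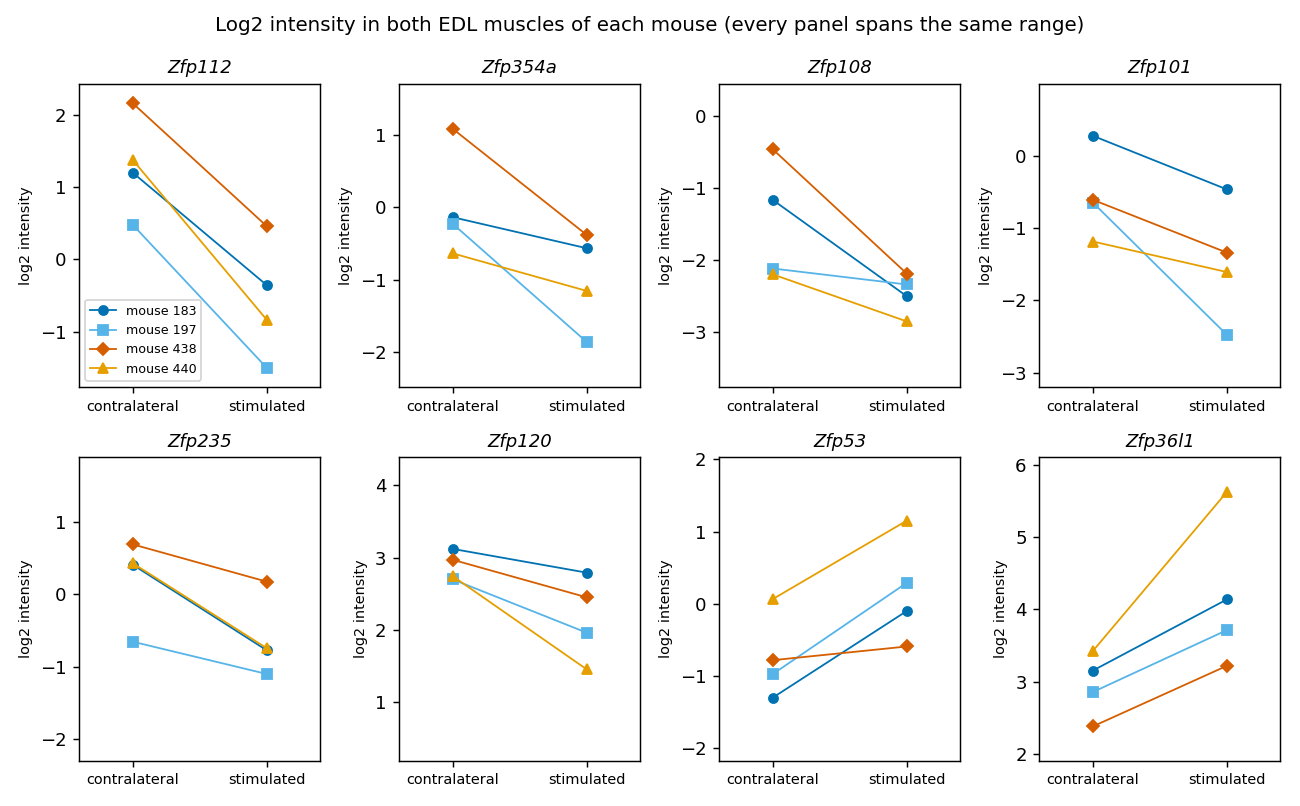
Log2 intensity (vertical axis) in the contralateral and the stimulated EDL of each mouse, joined by a line, for 6 of the members with the lowest and 2 with the highest changes; every panel spans the same range. All 4 lines fall for Zfp112, Zfp354a, Zfp108, Zfp101, Zfp235 and Zfp120 and all 4 rise for Zfp53 and Zfp36l1, and for Zfp36l1 mouse 440 rises most.

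Zfp112 lies in a run of 10 neighbouring Zfp genes on chromosome 7, from Zfp180 to Zfp94, with no other protein-coding gene between them in GRCm38.p6. The run was singled out after the values of its genes had been seen, and it is described without a test. A change was fitted for 8 of its genes, and 7 of the 8 changes were negative, where 64.7% of all probes and 42 of the 56 members (75.0%) had a negative change. The median of the 8 was -0.55. For the 8 Zfp genes elsewhere on chromosome 7 it was -0.19, and for the 48 members outside the run it was -0.17.

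Within the run the changes were uneven. Next to Zfp112, Zfp235 changed by -0.83 ± 0.24 and was lower in 4 of 4 mice, with differences of -1.18, -0.45, -0.52 and -1.18. Zfp108 changed by -0.98 ± 0.31, with differences of -1.33, -0.22, -1.72 and -0.65. Its contralateral values spread from -2.20 in mouse 440 to -0.47 in mouse 438, and the stimulated values lay together between -2.85 and -2.19. Zfp93 changed by -0.63 ± 0.24 and was lower in 3 of 4 mice, with mouse 438 level at 0.01. None of these 3 passed (adjusted p 0.158, 0.188 and 0.26).

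The other members of the run moved less. Zfp111 changed by -0.48 ± 0.25, Zfp61 by -0.41 ± 0.25 and Zfp94 by -0.21 ± 0.25. Zfp109, which lies between Zfp111 and Zfp108, was the exception, with a change of 0.35 ± 0.24 and higher values in 3 of 4 mice. Zfp180 and Zfp114 had no probe under these symbols in the annotation, and so no fitted change. The median over the run was -0.77, -0.24, -0.72 and -0.65 in mice 183, 197, 438 and 440, against -0.21, -0.21, -0.13 and -0.17 for the 48 other members. The genes of a tandem run resemble each other in sequence, and the part of cross-hybridisation between their probes was not tested.

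**Figure D3:**
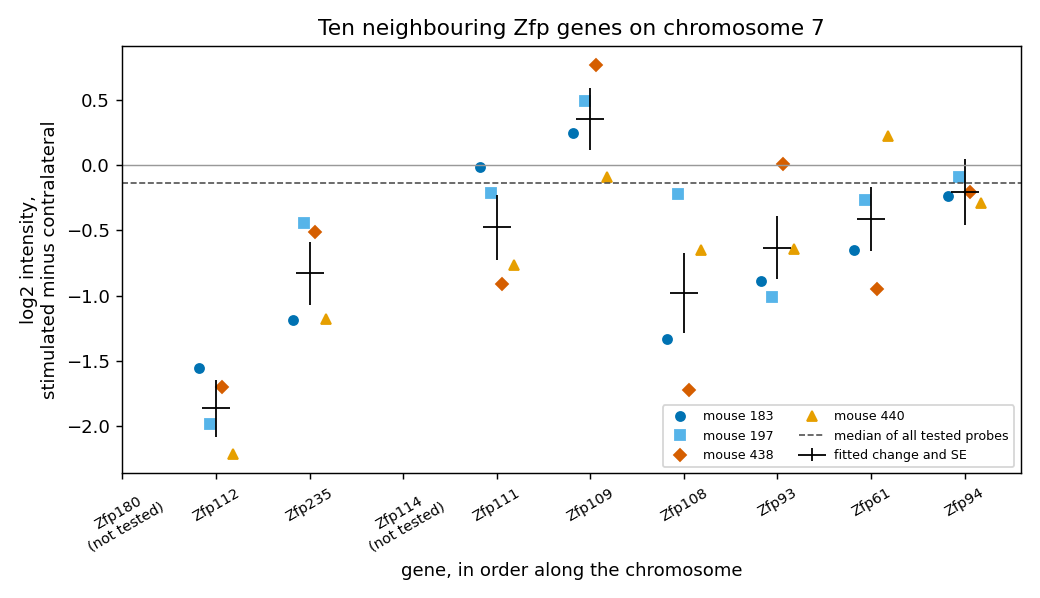
Log2 change (vertical axis) of the genes of the run on chromosome 7 in their order along the chromosome (horizontal axis), with 1 symbol per mouse and the fitted change and SE in black. Zfp180 and Zfp114 had no probe under these symbols, and so no fitted change. Changes run from -1.86 for Zfp112 to 0.35 for Zfp109, and 7 of the 8 lie below 0.

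The promoters of these neighbours share a short sequence. RefSeq promoters (GRCm38.p6) were given for 46 of the 57 members, and the 250 bases before the start of transcription were searched. The motif GAANTGTAG, on either strand, was found in 9 of 46 members (19.6%) and in 1.75% of 27025 genes. These letters lie within the longer site that the factors Znf143 and Thap11 are known to recognise. It was picked after the sequences below had been read, so this count is a description. Of the 10 genes in the run 9 had a promoter in the table and 7 held the motif: Zfp108, Zfp109, Zfp111, Zfp112, Zfp180, Zfp93 and Zfp94. The 9 members with the motif had a median change of -0.41 and the 37 without it -0.26. This order was not the same in every mouse. In mice 183, 197, 438 and 440 the medians were -0.24, -0.09, -0.44 and -0.65 with it and -0.25, -0.36, -0.24 and -0.11 without. Only Zfp146, Zfp354b and Zfp60 of the 9 lie outside the run, which was itself singled out after its values were seen. Zfp109, the gene of the run with a positive change, held the motif as well. The 4 members of the run with the lowest changes are shown, 5′ to 3′ on the plus strand, with the motif in capitals. Zfp112 (chr7:24112070-24112319) has it 147 and 53 bases before the start, Zfp108 (chr7:24254544-24254793) 122 and 66 bases before, and Zfp93 (chr7:24270168-24270417) 70 bases before. Zfp235 (chr7:24132122-24132371) has none in this window.
Zfp112: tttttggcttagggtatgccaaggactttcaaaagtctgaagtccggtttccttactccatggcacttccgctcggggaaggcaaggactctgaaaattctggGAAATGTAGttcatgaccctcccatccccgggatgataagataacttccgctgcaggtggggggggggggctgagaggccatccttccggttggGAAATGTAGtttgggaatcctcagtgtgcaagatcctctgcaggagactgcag
Zfp235: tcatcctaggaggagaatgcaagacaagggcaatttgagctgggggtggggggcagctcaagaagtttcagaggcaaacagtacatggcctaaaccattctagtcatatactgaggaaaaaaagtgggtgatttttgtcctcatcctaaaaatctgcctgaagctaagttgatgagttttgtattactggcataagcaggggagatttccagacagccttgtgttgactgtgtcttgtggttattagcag
Zfp108: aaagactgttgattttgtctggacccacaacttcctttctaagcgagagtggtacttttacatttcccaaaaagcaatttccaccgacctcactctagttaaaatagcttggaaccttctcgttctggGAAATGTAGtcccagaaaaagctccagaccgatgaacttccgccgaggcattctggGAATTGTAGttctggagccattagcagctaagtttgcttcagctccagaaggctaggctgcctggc
Zfp93: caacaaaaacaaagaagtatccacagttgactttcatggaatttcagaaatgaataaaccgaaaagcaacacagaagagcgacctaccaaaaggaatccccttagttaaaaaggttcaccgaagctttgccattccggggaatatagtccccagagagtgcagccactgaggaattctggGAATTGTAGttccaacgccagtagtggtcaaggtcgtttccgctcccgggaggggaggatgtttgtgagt

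Among the other members at the low end, Zfp354a, also known as Kid1 and first described as a KRAB repressor of the kidney, changed by -1.01 ± 0.28 and was lower in 4 of 4 mice (adjusted p 0.139). Its contralateral values were -0.14, -0.23, 1.09 and -0.64 and its stimulated values -0.57, -1.86, -0.38 and -1.16. The groups overlapped, and the differences of mice 183 and 440 (-0.43 and -0.52) were smaller than those of mice 197 and 438 (-1.64 and -1.47). The related genes Zfp354b and Zfp354c lie close by on chromosome 11 and did not share this size of change. Zfp354b changed by -0.41 ± 0.25, with all 4 stimulated muscles below all 4 contralateral ones. Zfp354c changed by 0.55 ± 0.30 but was at the intensity floor on 3 of 8 arrays, which limits what its differences can show.

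Zfp101 changed by -0.93 ± 0.28, lower in 4 of 4 mice, and by -0.63 without mouse 197, whose own difference was -1.83. Zfp120 changed by -0.72 ± 0.21. Its contralateral values were 3.12, 2.70, 2.97 and 2.74 and its stimulated values 2.79, 1.96, 2.45 and 1.45. The overlap between the groups came from mouse 183, whose stimulated muscle was still above the contralateral muscles of mice 197 and 440. Zfp830, a nuclear protein that early mouse embryos need, changed by -0.62 ± 0.21, with a difference of -0.05 in mouse 183 and of -0.88, -0.62 and -0.94 in mice 197, 438 and 440. Zfp202, whose human counterpart represses genes of lipid metabolism, changed by -0.59 ± 0.22. Its differences were the most even of these, at -0.60, -0.48, -0.63 and -0.65. Zfp37, known from testis and brain, changed by -0.61 ± 0.29 and was at the floor in 2 muscles. None of these 5 passed, with adjusted p between 0.165 and 0.342 in limma.

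Lower values in every mouse were more frequent among the members than over the array, and higher values were not; this difference was not tested. Of the 56 members 17 (30.4%) were lower in 4 of 4 mice, against 16.5% of all probes, and 4 (7.14%) were higher in 4 of 4 mice, against 8.32%. In 3 members (5.36%) all stimulated muscles lay below all contralateral muscles and all 4 mice were lower, against 1.64% of all probes: Zfp112, Zfp316 and Zfp354b. In 0 members did the groups part the other way, against 1.54% of all probes. Zfp316 changed by only -0.45 ± 0.21, with contralateral values of 0.65, 0.76, 0.53 and 0.62 and stimulated values of 0.44, 0.23, 0.11 and -0.02. The SD of its contralateral values, 0.10, was the smallest among the tested members, whose median was 0.48.

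Zfp36l1 had the largest positive change, just short of the threshold. This RNA-binding protein, also known as TIS11b and a relative of tristetraprolin, marks AU-rich messages for decay. Its log2 intensity in contralateral muscle was 3.15, 2.86, 2.38 and 3.43 in mice 183, 197, 438 and 440. In stimulated muscle it was 4.14, 3.71, 3.22 and 5.63. The groups overlapped, while the stimulated muscle was higher in each of the 4 mice, by 0.98, 0.86, 0.84 and 2.20. The fitted change was 1.22 ± 0.25, a 2.33-fold higher intensity, at adjusted p 0.0524. Without mouse 440 the change was 0.89 and passed (adjusted p 0.0353). Zfp36l1 passed under no other alternative setting. There its adjusted p in limma ran from 0.0532 (floor at the 1st percentile) to 0.955 (without mouse as a block). The summed intensity of 9 leukocyte markers was 579 in the stimulated muscle of mouse 440 and 27.3 to 97 in the other 3 stimulated muscles, with 24.4 to 118 in contralateral muscles and 0 markers at the floor on every array. This sum is carried by bright markers: Cd14 was higher by 3.57 and S100a8 by 2.41 in mouse 440. Ptprc (1.20), Cd79a (0.99), Itgam (0.97), Lyz2 (0.61) and Fcgr3 (0.43) were also higher there, and Cd3e (-0.67) and Ly6c1 (-0.51) were lower. Ccr2 was lower in mouse 440 too (-1.66), but it lacked a value in mouse 197 and is not part of the sum. Over all 4 mice 5 of 10 leukocyte markers had a negative change, 0 passed, and the median was -0.01. The stimulated muscle of mouse 440 also had the highest summed intensity of 2 nerve markers (147) and of 10 satellite cell markers (135). The 2 nerve markers went opposite ways there: Pmp22, the far brighter, was higher by 1.21, and Nefm was lower (-0.96). Among satellite cell markers Myod1 was higher by 3.02, Sdc4 by 1.37, Myf5 by 1.20, Calcr by 1.04 and Pax3 by 0.96. Vcam1 (0.52), Met (0.34) and Cdh15 (0.24) were also higher, and Myog (-0.84) and Itga7 (-0.10) were lower. The sum of 6 fibroblast and adipocyte markers was also highest there (537), close to that of the stimulated muscle of mouse 438 (532). Of these, Fabp4 (1.10), Dcn (0.21), Thy1 (0.16) and Col1a2 (0.04) were higher in mouse 440, and Lum (-0.69) and Pdgfra (-0.49) were lower. The part of leukocytes, nerve cells, satellite cells, fibroblasts or adipocytes in the Zfp36l1 value of mouse 440 was not tested. In a whole muscle, more cells of a type and more RNA per cell cannot be told apart.

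The promoter of Zfp36l1, on the minus strand at chr12:80113014-80113263, is shown because the gene had the largest positive change. It holds 1 match to TGANTCA, a loose form of the AP-1 site that takes any middle base, in capitals, 129 bases before the start. The match reads TGATTCA, and whether AP-1 binds it was not tested. The loose pattern was searched on both strands and was present in 3 of 46 members (6.52%) and in 7.82% of all genes. The cAMP response element TGACGTCA and the serum response element, sites through which early genes are known to respond to stimuli, were in 0 of 46 members, against 1.77% and 1.62% of all genes. The GC box GGGCGG and the CCAAT box were each in 20 of 46 members (43.5%), against 35.4% and 37.5% of all genes. The members' promoters held a median of 12.5 CG dinucleotides, against 6 over all genes.
Zfp36l1: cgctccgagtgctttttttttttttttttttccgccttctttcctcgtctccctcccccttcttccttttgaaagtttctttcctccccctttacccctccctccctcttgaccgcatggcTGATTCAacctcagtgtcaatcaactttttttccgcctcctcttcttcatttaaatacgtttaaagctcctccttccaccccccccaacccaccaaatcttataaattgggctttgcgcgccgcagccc

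Zfp53 and Zfp593 followed at the high end and did not pass (adjusted p 0.135 and 0.317). Zfp53 had contralateral values of -1.30, -0.97, -0.78 and 0.07 and stimulated values of -0.10, 0.29, -0.59 and 1.15. It was higher in 4 of 4 mice, by 1.20, 1.26, 0.19 and 1.09, for a fitted change of 0.93 ± 0.25. Zfp593, whose yeast counterpart acts in the export of large ribosomal subunits, differed between the pairs of mice. It was higher by 1.79 and 1.23 in mice 183 and 197, and by 0.36 and -0.24 in mice 438 and 440, for a fitted change of 0.78 ± 0.34. Zfp148, which binds GC-rich promoters, was higher by 1.33 and 1.29 in mice 183 and 440 and lower in mice 197 and 438, by -0.58 and -0.09. Its contralateral values ranged from 0.15 in mouse 438 to 2.93 in mouse 197, a wider range than its fitted change of 0.49 ± 0.33.

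The remaining high members changed little. Zfp105 (0.35 ± 0.29) and Zfp146 (0.31 ± 0.38) each drew on mouse 440, with differences of 1.26 and 1.54 there, and without mouse 440 stood at 0.04 and -0.10. Zfp275 (0.33 ± 0.19) and Zfp296 (0.30 ± 0.23) were smaller but higher in 4 of 4 mice. Zfp296 is known for a part in the reprogramming of mouse cells to pluripotency.

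Grouped by role, neither RNA-binding nor developmental members passed, and their medians were close to that of the array. Of 5 measured members that handle RNA or bind microtubules and RNA, 0 passed and 3 were negative, with a median of -0.08. Beside Zfp36l1 these were Zfp346, which binds double-stranded RNA (-0.43 ± 0.21), and Zfp207, a partner of the mitotic checkpoint protein Bub3 (-0.20 ± 0.22). The others were Zfp326, a component of a human complex that links transcription and splicing (-0.08 ± 0.19), and Zfp385a, a target of p53 (0.15 ± 0.20). By sign Zfp346 was lower in 4 of 4 mice, but mouse 183 was level at -0.0006.

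Of 7 members with roles in cell identity 0 passed and 4 were negative, with a median of -0.14. Zfp423, a factor that commits cells to the fat lineage, changed by 0.18 ± 0.20 and Zfp638, a cofactor of fat cell differentiation, by -0.52 ± 0.25. Zfp467, which sways marrow precursors between fat and bone, changed by -0.39 ± 0.22, lower in 4 of 4 mice. Zfp24, needed for myelination, changed by -0.14 ± 0.23. Zfp42, a marker of pluripotent cells, was dim, with values between -3.37 and -1.51, and changed by -0.58 ± 0.36. Its difference was positive in mouse 440 alone. Of the general promoter factors 2 were measured and 0 passed: Zfp148, described above, and Zfp64. The latter, which takes part in Notch signalling in mesenchymal cells, had differences of -0.95 and 0.99 in mice 183 and 440, which left a fitted change of -0.08 ± 0.29.

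The 3 of the 8 brightest members not yet described did not pass. Zfp386 changed by -0.31 ± 0.24, with -1.14 in mouse 440 and between -0.20 and 0.10 in the other 3. Zfp110, which binds the neurotrophin receptor p75, changed by -0.26 ± 0.23 and Zfp30 by -0.15 ± 0.20, the last of which was within its SE. The 21 tested members not named by the rule on named genes had changes from -0.48 for Zfp111 to 0.13 for Zfp113, of which 19 were negative, and the smallest adjusted p among them was 0.372. Altogether 20 of the 56 members had a change smaller than its own SE. Zfp493 was measured in mice 438 and 440 alone, where its differences were 0.20 and -0.90.

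The members as a group sat slightly below the array. Their median change was -0.21, with quartiles of -0.45 and 0.02, and that of all probes was -0.14, with quartiles of -0.36 and 0.11. The 4 mice gave nearly the same median for the members, at -0.23, -0.22, -0.22 and -0.21 in mice 183, 197, 438 and 440. The members themselves spread far more widely, with quartiles of -0.55 and 0.23 in mouse 183 and of -0.81 and 0.25 in mouse 440. The median of all probes moved far more, at -0.01, -0.09, -0.09 and -0.30, and in mouse 440 it was below that of the members. In that mouse 69.6% of members and 64.7% of probes were lower, and in mouse 183 67.9% and 51.1%. The shares were 66.1% and 57.3% in mouse 197, and 58.9% and 57.7% in mouse 438. Cyclic loess normalization moved the median of all probes from -0.14 to -0.01 and that of the members to -0.13. The members' median minus that of all probes was -0.08 as deposited, -0.12 after cyclic loess and -0.01 within mice 438 and 440.

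**Figure D4:**
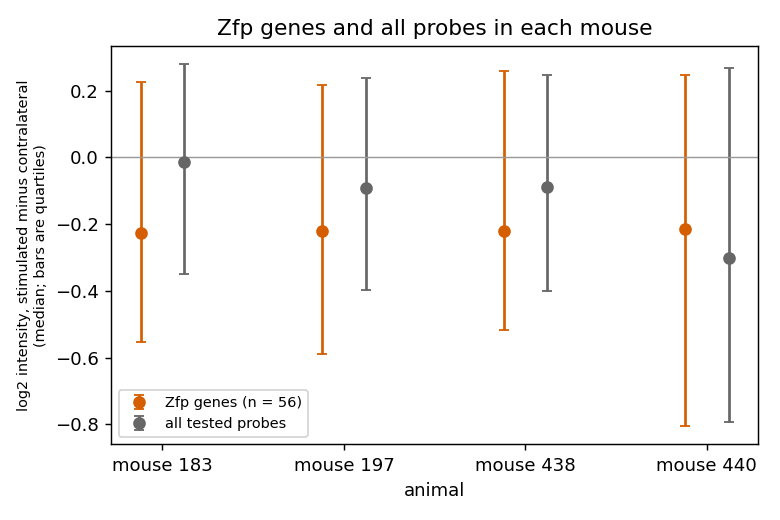
Median log2 change (vertical axis, bars from the lower to the upper quartile) of the 56 Zfp genes and of all tested probes in each mouse. The median of the Zfp genes stays between -0.23 and -0.21, and that of all probes runs from -0.01 in mouse 183 to -0.30 in mouse 440.

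The arrays of mice 183 and 197 and those of mice 438 and 440 lacked values on different probes. On all 4 arrays of mice 183 and 197, 56 probes were missing that had a value on every array of mice 438 and 440, and 25 the reverse. The members were therefore also set side by side within each pair. Contralateral intensities differed between the pairs: in 22 members (39.3%) both muscles of mice 438 and 440 were above those of mice 183 and 197, against 48.3% of all probes, and in 7 (12.5%) both were below, against 10.5%. Zfp40, chosen for this after its values were seen, stood at 0.63 and 1.02 in the first pair and at 2.32 and 2.58 in the second. Each mouse being its own control, such offsets drop out of the changes. The mean difference had the same sign in both pairs for 39 of 56 members, 27 lower and 12 higher. Across these genes, which are not independent replicates, Pearson's r between the pairs was 0.50, and 0.41 without Zfp112, against 0.46 over 10245 probes. Zfp112 differed by -1.77 and -1.96 in the pairs, Zfp36l1 by 0.92 and 1.52, and Zfp593 by 1.51 and 0.06. Within the pairs alone limma called Zfp112 in mice 438 and 440 (adjusted p 0.0366) and not in mice 183 and 197 (adjusted p 0.361). No test of a difference between the pairs was run.

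**Figure D5:**
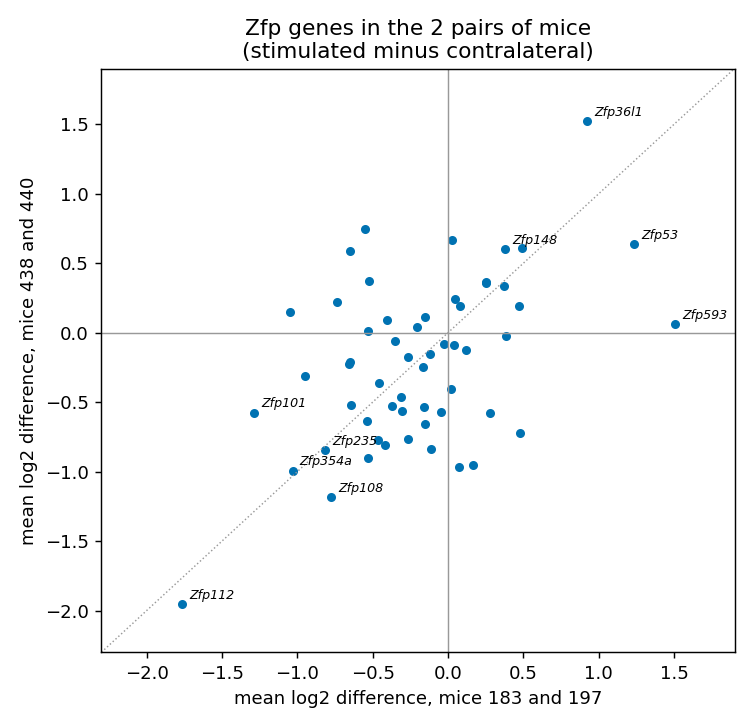
Mean log2 difference of each of the 56 Zfp genes in mice 183 and 197 (horizontal axis) against mice 438 and 440 (vertical axis), with the line of equality dotted. Zfp112 lies near the line at -1.77 and -1.96, Zfp593 far from it at 1.51 and 0.06, and 39 of the 56 points share their sign in both pairs.

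Zinc finger genes of other families held no call, and 3 of 10 known to respond early to stimuli were called. Over all tested probes 1.34% were called and 64.7% had a negative change. Lists of 8 to 27 genes with 0 calls are near that share of calls. Of 12 measured C2H2 genes with a BTB domain 0 passed and 9 were negative, with a median of -0.35. Bcl6, a repressor of inflammatory genes, had the smallest p among them (0.89 ± 0.23, adjusted p 0.114). Of 8 with a SCAN domain or other names for the KRAB class 0 passed and 7 were negative, with a median of -0.34, led by Zscan21 (-0.80 ± 0.21). General and insulator factors (0 of 12 passed, median -0.18) and developmental factors such as Zeb2 (0 of 27 passed, median -0.03, Zeb2 at -0.75 ± 0.24) also held no call. Among 10 early response factors 3 passed as higher and 0 as lower, while 5 of the 10 changes were negative, with a median of 0.40. This list, like the others, was chosen with earlier results of these data known. The 3 that passed were Klf4 (1.77 ± 0.19, adjusted p 0.005), Egr1 (2.63 ± 0.35, adjusted p 0.0101) and Klf2 (1.61 ± 0.23, adjusted p 0.0142, measured in 3 mice, without mouse 183). These 3 have fingers of the same C2H2 kind but are activators and repressors outside the KRAB class.

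The machinery through which KRAB proteins silence genes was measured for 24 members of the list. At the threshold 1 rose, 0 fell and 23 did not pass, where 1.11% of all probes were called higher and 0.231% lower. Of the 24 changes 14 were negative, where 64.7% of all probes were. The median was -0.09, against -0.14 for all probes. The one that rose was H3f3b, which encodes the replacement histone H3.3 (1.17 ± 0.21, 2.25-fold, adjusted p 0.0281 in limma). Its sister gene H3f3a changed by 0.51 ± 0.24. Uhrf1, which reads half-methylated DNA, changed by 1.00 ± 0.24 and did not pass. Sumo3 changed by -0.79 ± 0.30 and did not pass either (adjusted p 0.258 in limma). The corepressor Trim28 itself changed by -0.16 ± 0.23 and the histone methyltransferase Setdb1 by 0.01 ± 0.19. Of the heterochromatin proteins, Cbx1 changed by -0.33 ± 0.22, Cbx3 by -0.06 ± 0.22 and Cbx5 by 0.44 ± 0.28.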

How the data were processed

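The deposited values are linear intensities, 1 for each probe on each array, already normalized when deposited. Per the labels' protocols, bacterial control RNAs served for scaling, and the background correction was not given in the sources used here. Intensities under 0.0937, the 5th percentile of positive values, were raised to that floor, and log2 was taken with no further scaling. Probes with both muscles measured in at least 3 mice (10406) were fitted with limma 3.58.1 in R 4.3.3, two-sided, with mouse as a block, an intensity trend in the variance prior and Benjamini-Hochberg adjustment over all probes. The titles pair the muscles by animal, and deviations from the group means correlated within mice at 0.52 to 0.64. The same correlation between muscles of different mice was not computed, so these values alone do not show pairing by animal. The fit was also run on data simulated from its own model, with normal noise independent between probes. That run cannot show how the fit handles floored or correlated values. The number of arrays limits the precision, with a median SE of 0.25 for the members.

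The members and lists were chosen with earlier results of these data known. Named genes were those past the threshold, the 10 lowest and 10 highest changes, the 8 brightest members, members whose groups did not overlap, members of the role lists and, of the other lists, up to 3 genes with the smallest p. H3f3a, Trim28, Setdb1, Cbx1, Cbx3, Cbx5, Zfp111, Zfp61, Zfp94, Zfp40, Zfp113 and Zfp493 were named after their values were seen. A planned description of protein domains was not made. Alternatives covered the block, scaling, floor, dim probes, variance model, pairs of mice and each mouse left out.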

Additional observations from a re-analysis of the deposited data

Results flagged for a closer look

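In 6 of 112 groups of 4 muscles, 1 muscle stood apart from the other 3 by Dixon's ratio, where chance alone marks about 1 group in 20. Of these, 3 concern the stimulated muscle of mouse 440, the highest of its group in each: Zfp146 was at a log2 intensity of -0.87 with the others between -3.18 and -3.09, Zfp42 at -1.51 with the others between -3.37 and -3.25, and Zfp60 at -1.81 with the others between -2.47 and -2.36. For Zfp60 the contralateral muscle of mouse 440 was also the highest of its group, at -0.98, and the difference in that mouse was -0.82. The stimulated muscle of mouse 438 held Zfp276 at -0.66, with the others between -3.42 and -3.08, and its contralateral muscle was also the highest, at 0.17. The contralateral muscle of mouse 438 held Zfp830 at 3.18, with the others between 2.35 and 2.45. The contralateral muscle of mouse 183 held Zfp318 at -1.80, with the others between -0.77 and -0.68.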

How the results depend on the processing

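Zfp112 kept its direction under all 15 alternatives but lost its call without mouse 183 and in the other fits with 0 Zfp genes. With no replicate block, 1 probe of the array and 0 Zfp genes passed. With the floor at the 20th percentile, with a paired test without moderation and within mice 183 and 197 alone, 0 probes and 0 Zfp genes passed (1296, 1208 and 858 probes at unadjusted p under 0.05). Without the intensity trend 50 probes passed and within mice 438 and 440 alone 69, Zfp112 among them in both. Leaving out 1 mouse gave 7 (without mouse 183) to 176 probes (without mouse 440), 0 to 2 Zfp genes, 0 to 1 higher (Zfp36l1, without mouse 440) and 0 to 1 lower.

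The median change of the Zfp genes, -0.21, ranged from -0.27 to -0.21 with 1 mouse left out. It was -0.17 in the brighter 50% of probes, -0.13 after cyclic loess, -0.16 after quantile normalization, -0.15 with the floor at the 20th percentile, -0.19 with a pseudocount of 0.1, and -0.18 and -0.21 within mice 183 and 197 and within mice 438 and 440. Of 38 genes followed by name 29 kept their direction throughout. Zfp354c had a change of 0 with the floor at the 20th percentile, where all 8 of its values are at the floor. The other exceptions within mice 438 and 440 were Zfp110 (0.011), Zfp30 (0.094), Zfp326 (0.037), Zfp423 (-0.021) and Zfp64 (0.37), and within mice 183 and 197 Zfp207 (0.016). Zfp94 turned to 0.067 after cyclic loess and 0.091 after quantile normalization. With 1 mouse left out Zfp146 ranged from -0.10 to 0.68 and Zfp64 from -0.43 to 0.21. The causes were not tested. Cyclic loess used the probes with all 8 values, and taking the mean over a gene's probes gave nothing further, since each gene has 1 probe. Dim members such as Zfp37, Zfp276, Zfp146 and Zfp354c, at the floor on 2 or 3 arrays, have differences limited by the floor.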
